A study of Mus musculus with 6 samples.

Results

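The 10 genes described here encode both heparanases and 8 enzymes that build or trim heparan sulfate: *Hpse*, *Hpse2*, *Ext1*, *Ext2*, *Ndst2*, *Hs2st1*, *Hs6st1*, *Glce*, *Sulf1* and *Sulf2*. They were picked by name, because *Hpse2* stood out in the authors' comparison of treated with untreated cells, and that comparison is not used here. They made up 10 of the 19338 gene symbols matched in a table of 20633 RefSeq transcript entries. *Sulf1* had 2 entries and the other genes 1 each, and for *Sulf1* the entry with the higher mean was kept.

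The cells were mouse embryonic stem cells of the genotype *Rybp* fl/fl;*Yaf2*-/-, which carry loxP sites around *Rybp* and express a Cre recombinase that tamoxifen switches on, and their nuclear RNA was sequenced. Of the 6 libraries, 3 were untreated (UNT) and 3 came after 96 hr in 800 nM tamoxifen (OHT), the treatment that deletes *Rybp*. The study asked how gene transcription responds when RYBP, a subunit that stimulates Polycomb repressive complex 1, is removed. Both groups lacked *Yaf2*, the paralogue of *Rybp*, through CRISPR-Cas9 editing, and no group without floxed *Rybp* received OHT. The level used throughout is the base mean, which is the authors' mean of library-size-normalized counts over all 6 libraries. It is 1 value per entry, so neither a spread between libraries nor a comparison of OHT with UNT could be had from it. The question of a response to *Rybp* deletion is therefore not analysed here, and the values below describe how strongly each gene was represented in the nuclear RNA of the UNT and OHT cells together.

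Heparan sulfate is a long sugar chain carried by proteoglycans at the cell surface and in the extracellular matrix, where it binds growth factors such as fibroblast growth factors. The chain is started on a linkage tetrasaccharide, lengthened in the Golgi by the EXT1 and EXT2 polymerase, and then modified in order by N-deacetylase N-sulfotransferases, the epimerase GLCE and the O-sulfotransferases. Outside the cell the endosulfatases SULF1 and SULF2 remove 6-O-sulfate groups, heparanase cuts the chain, and heparanase 2 binds heparan sulfate but has no known cutting activity. Mouse embryonic stem cells use heparan sulfate in the signalling that lets them leave the self-renewing state.

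The start regions of 3 of the genes are shown because they span the range of CG content and level among the genes described. They are both heparanases, which had the lowest levels per kb of gene span, and *Hs6st1*, which had the highest on that scale. *Glce* came near *Hs6st1* only over its matched transcript, which is shorter than its RefSeq gene span. Each line holds the 250 bases before the annotated start, from RefSeq on GRCm38.p6, read 5' to 3' on the gene's own strand, with every CG dinucleotide in capitals.

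*Hpse*, chr5:100719717-100719966, minus strand: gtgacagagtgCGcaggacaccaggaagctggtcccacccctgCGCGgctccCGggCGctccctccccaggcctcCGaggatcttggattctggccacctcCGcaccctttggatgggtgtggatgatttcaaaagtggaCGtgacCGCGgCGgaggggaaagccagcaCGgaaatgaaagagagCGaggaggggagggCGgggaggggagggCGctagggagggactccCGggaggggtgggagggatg

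*Hpse2*, chr19:43388356-43388605, minus strand: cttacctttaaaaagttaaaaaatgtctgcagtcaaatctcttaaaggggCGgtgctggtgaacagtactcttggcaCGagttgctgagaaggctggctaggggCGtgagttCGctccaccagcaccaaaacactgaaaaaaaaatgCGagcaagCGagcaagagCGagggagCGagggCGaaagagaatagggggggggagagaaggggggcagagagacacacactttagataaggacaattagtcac

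*Hs6st1*, chr1:36068150-36068399, plus strand: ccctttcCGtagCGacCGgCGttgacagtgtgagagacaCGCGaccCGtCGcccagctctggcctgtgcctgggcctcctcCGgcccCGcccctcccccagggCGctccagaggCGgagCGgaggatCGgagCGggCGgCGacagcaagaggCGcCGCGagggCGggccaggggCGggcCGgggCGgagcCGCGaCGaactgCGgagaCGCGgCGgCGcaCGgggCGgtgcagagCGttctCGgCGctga

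The *Hs6st1* window held 37 CG dinucleotides at a GC content of 76.4%, and only 2.20% of the 32851 mouse windows of this length held as many. The *Hpse* window held 16 CG dinucleotides (GC 66.8%), a count reached by 25.4% of windows. The *Hpse2* window held 9 (GC 50%), a count reached by 40.3% of windows, against a median of 6 over all windows. Of the other genes with a window, *Ext2* held 12, *Ndst2* 15, *Hs2st1* and *Sulf2* 21 each and *Glce* 24. No window was held for *Ext1* and *Sulf1*. The letters TATAAA, searched on both strands, were in none of the 8 windows and in 12.4% of all windows. A match or its lack is a description of these letters in this window.

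Of the 10 genes, 9 had a base mean above 307, the median of the 19198 entries above 0. The exception was *Hpse*. A long gene collects more counts than a short one at the same rate of transcription, and nuclear RNA holds introns, so levels were compared between genes per kb of gene span, from the start to the end of the transcript matched to each entry. On that scale 8 of 10 were above the median of 14.0 base mean counts per kb, and both genes below it were heparanases. Per kb of exon 8 of 10 were again above the median, here 119 base mean counts per kb, but the genes below it were *Hpse* and *Ndst2*. The median percentile of the 10 genes per kb of span, taken among all entries above 0, was 67.6. This takes *Glce* over its matched transcript, at percentile 89.7, while over its RefSeq gene span *Glce* was at 61.7.

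*Hpse* encodes heparanase, the endoglucuronidase that cuts heparan sulfate chains. Its entry (NM_152803) spans chr5:100679484-100719716 on the minus strand of mm10, 40.2 kb with 12 exons. The base mean was 54.5 counts, with a 95% counting interval of 46.0 to 63.0, at percentile 31.0. Per kb of gene span it was 1.36 (interval 1.14 to 1.57), at percentile 24.9, and per kb of exon 17.5, at percentile 28.2. *Hpse* was the lowest of the 10 genes by base mean and per kb of exon. These intervals, here and below, cover counting error only: they rest on library sizes read from the steps between the lowest base means, take each read pair as 2 counts and the level as equal in all libraries, and hold nothing of the spread between libraries.

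*Hpse2* encodes heparanase 2. Its entry (NM_001081257) spans chr19:42786539-43388355 on the minus strand, and at 602 kb it was longer than 99.3% of entries, while its 12 exons made up 0.703% of that span. The base mean was 906 counts (interval 871 to 941), at percentile 68.9. Per kb of gene span the level was 1.51 (interval 1.45 to 1.56), at percentile 25.6, and per kb of exon it was 214, at percentile 60.4. Where *Hpse2* stood among all entries therefore turned on the length used, from above the median by base mean or by exon length to below it by span.

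The base mean of *Hpse2* was 16.6 times that of *Hpse* (interval 14.2 to 19.5), and per kb of exon the ratio was 12.2 (interval 10.4 to 14.4). Per kb of gene span the ratio was 1.11 (interval 0.946 to 1.30), so the heparanases could not be ordered on that scale within counting error. Since *Hpse2* was picked for a difference between OHT and UNT, its mean over both groups may pool unlike levels. Its rank, its ratios and the equal level that its intervals assume are limited by that, and levels within each group were not analysed here. The next gene up, *Ext2*, was 11.8 times as high as *Hpse2* per kb of span. The GENCODE annotation places 4 other genes within the *Hpse2* span, none of them protein coding and none with an entry of its own: an rRNA gene and a processed pseudogene on the same strand, and an antisense gene sharing 10719 bases and another processed pseudogene on the opposite strand. Reads from the same-strand genes could not be told apart from *Hpse2* reads in a gene-body count. Reads from the opposite-strand genes could not be told apart in a count that did not use strand. The libraries were directional, and the paper does not state whether the count used strand. The same limits apply to *Hs2st1*, with 2 sense-intronic genes on its strand. They apply also to *Hs6st1*, with an antisense gene, and to *Ext2*, with a processed pseudogene on the opposite strand.

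**Figure D1:**
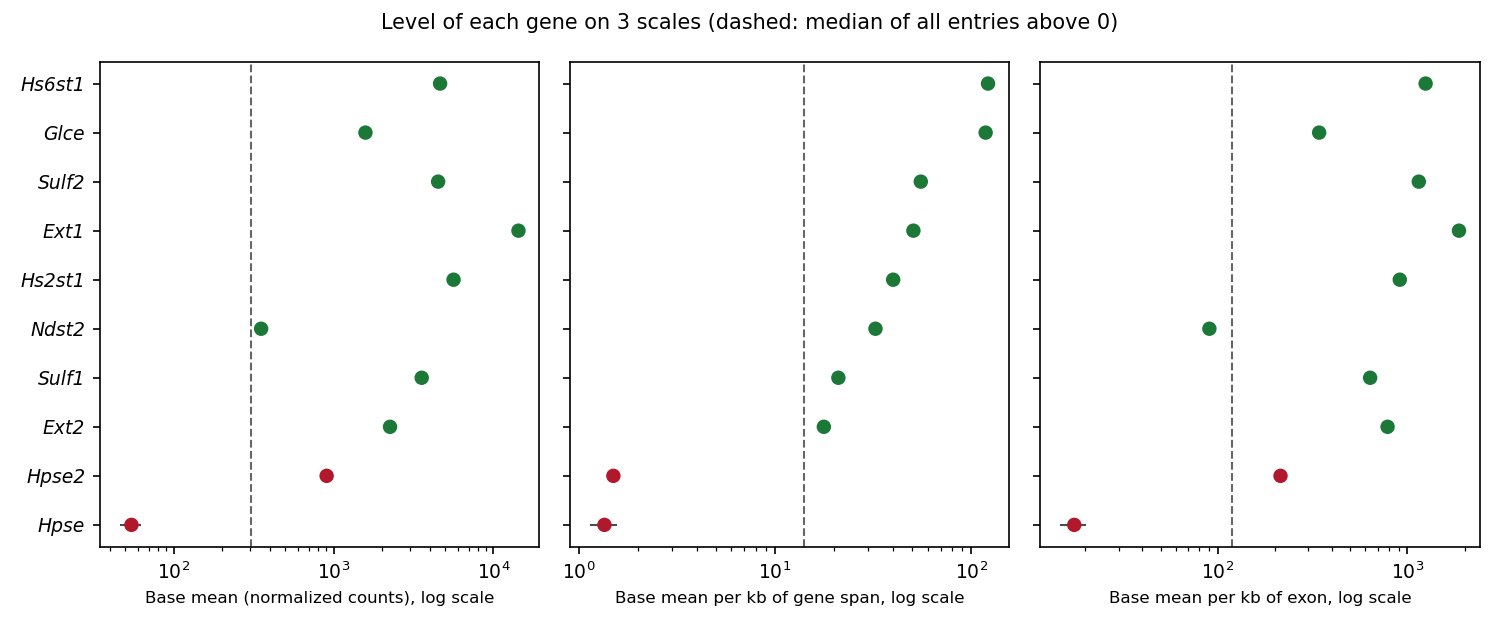
Level of the 10 genes (rows, ordered by the middle panel) as base mean in normalized counts, base mean per kb of gene span and base mean per kb of exon, each on a log axis, as the authors' mean over 6 libraries. Bars are 95% counting intervals, mostly smaller than the points, dashed lines are the medians of all entries above 0 and red points are the heparanases. *Hpse2* lies at 906, 1.51 and 214 on the 3 scales, to the left of the dashed line in the middle panel and to its right in the others.

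*Ext1* and *Ext2* encode the subunits of the polymerase that adds glucuronic acid and N-acetylglucosamine to the growing chain. *Ext1* (chr15:53064038-53346159, minus strand, 282 kb) had a base mean of 14333 counts, at percentile 99.3 and the highest of the 10 genes. *Ext2* (chr2:93695631-93822568, minus strand, 127 kb) had a base mean of 2256 counts, at percentile 84.8. Per kb of span the levels were 50.8 and 17.8, so *Ext1* was 2.86 times as high as *Ext2* (interval 2.79 to 2.93). Per kb of exon the ratio was 2.38 (interval 2.32 to 2.44), and *Ext1* was thus above *Ext2* on every scale. Of the 3 EXT-like genes, *Extl3*, which adds the first N-acetylglucosamine, had a level per kb of span of 42.7, *Extl2* of 15.4 and *Extl1* of 5.36.

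*Ndst2* encodes a bifunctional enzyme that removes acetyl groups from N-acetylglucosamine and puts sulfate in their place, and it is known for its part in making heparin in mast cells. It is the shortest of the 10 genes (chr14:20723730-20734562, minus strand, 10.8 kb, 15 exons). Its base mean was 353 counts, at percentile 52.1, and its level per kb of span was 32.6, at percentile 65.5. Per kb of exon it was 90.3, at percentile 45.9. Its paralogue *Ndst1* had a higher base mean of 824 counts but a level per kb of span of 30.0, so that the ratio of *Ndst2* to *Ndst1* was 0.428 by base mean, 1.08 (interval 1.01 to 1.17) per kb of span and 0.665 per kb of exon. The order of *Ndst1* and *Ndst2* therefore depended on the length used. *Ndst3* was at 0.313 per kb of span and *Ndst4* at 0.00223, with a base mean of 0.723 counts.

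*Glce* encodes the C5-epimerase that turns glucuronic into iduronic acid, and *Hs2st1* encodes the enzyme that then adds sulfate at the 2-O position. *Glce* had a base mean of 1584 counts (percentile 79.2) and a level per kb of span of 119 (interval 115 to 122). That level rests on a matched transcript of 13.4 kb (chr9:62057248-62070606, minus strand). The RefSeq gene table gives *Glce* a span of 65.4 kb, and over that length its level was 24.2, at percentile 61.7 instead of 89.7. Its promoter window also lay 52003 bases from the start of the matched transcript. *Hs2st1* (chr3:144429706-144570181, minus strand, 140 kb) had a base mean of 5630 counts, at percentile 95.4, and a level per kb of span of 40.1, at percentile 69.8.

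*Hs6st1* encodes one of the 3 enzymes that add sulfate at the 6-O position. It lies at chr1:36068400-36106446 on the plus strand, spans 38.0 kb and has 2 exons. Its base mean was 4638 counts (percentile 93.8), and its level per kb of span was 122 (interval 120 to 124), at percentile 90.1. The counting intervals of *Hs6st1* and *Glce* per kb of span overlapped, with *Glce* taken over its matched transcript. Against its paralogues, *Hs6st1* was 20.6 times as high as *Hs6st2* and 13 times as high as *Hs6st3* per kb of span. Those genes span 294 kb and 731 kb, and per kb of exon *Hs6st1* was 3.08 times as high as *Hs6st2* but 0.311 times as high as *Hs6st3*. By base mean too, *Hs6st3* (6853 counts) was above *Hs6st1*.

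*Sulf1* and *Sulf2* encode the endosulfatases that remove 6-O-sulfate from finished chains outside the cell. *Sulf2* (chr2:166073920-166155285, minus strand, 81.4 kb) had a base mean of 4509 counts, at percentile 93.6. *Sulf1* (chr1:12692277-12861192, plus strand, 169 kb) had a base mean of 3560 counts, at percentile 91.0. Per kb of span *Sulf2* was at 55.4 and *Sulf1* at 21.1, a ratio of 2.63 (interval 2.56 to 2.70), and *Sulf2* was also above *Sulf1* by base mean (1.27 times) and per kb of exon (1.81 times). The second *Sulf1* entry, which lies within the first, had a base mean of 3280 counts over 142 kb, or 23.1 per kb of span. Either entry of *Sulf1* was thus below *Sulf2* and above *Ext2* per kb of span.

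In order of level per kb of span the genes stood as *Hs6st1*, *Glce*, *Sulf2*, *Ext1*, *Hs2st1*, *Ndst2*, *Sulf1*, *Ext2*, *Hpse2* and *Hpse*. Neighbours in that order had separate counting intervals except *Hs6st1* with *Glce* and *Hpse2* with *Hpse*, and over its RefSeq gene span *Glce* would stand between *Ndst2* and *Sulf1*. By base mean the intervals of *Hs6st1* and *Sulf2* were the ones that overlapped, and per kb of exon none did. Whether neighbours also differ beyond the spread between libraries could not be tested.

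**Figure D2:**
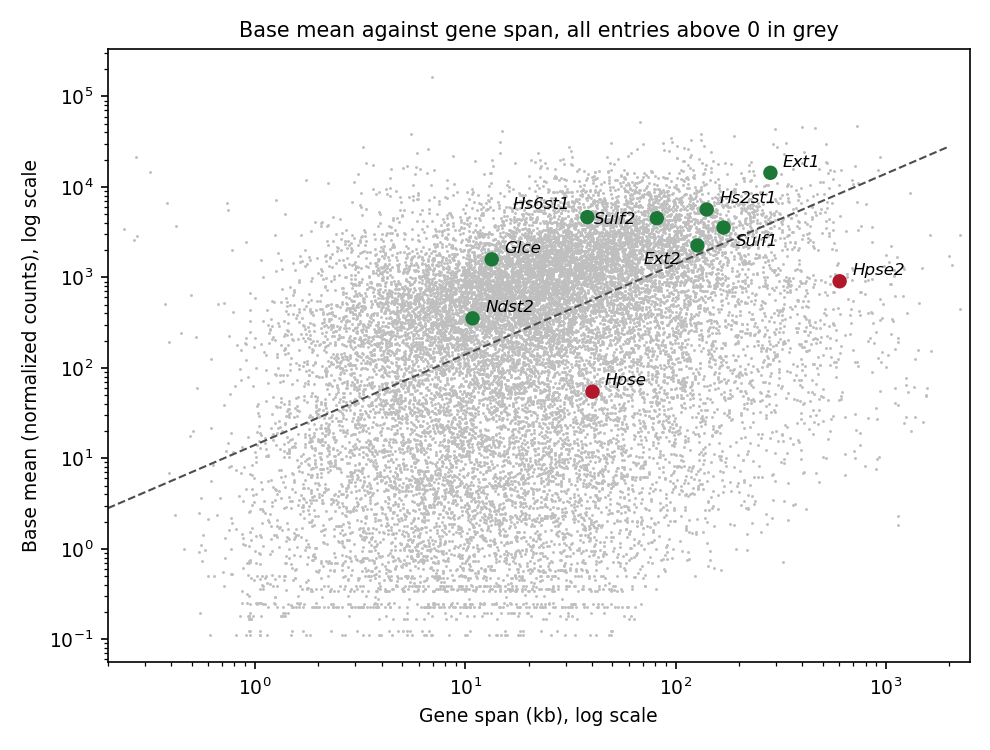
Base mean in normalized counts against gene span in kb, both on log axes, for all entries above 0 with a matched transcript (grey) and the 10 genes (green, with the heparanases in red). The dashed line marks the median of 14.0 base mean counts per kb of span, below which lie *Hpse* and, at 602 kb, *Hpse2*.

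The paper does not state outright which part of a gene was counted. Its gene set was filtered on the mappability of gene bodies and start sites. Reads that STAR left unaligned were realigned for better coverage of intronic sequence. The base means were also examined for the part counted. Base mean rose with span across the 18871 entries above 0 with a matched transcript (Spearman's rho 0.369) and to a like degree with exon length (rho 0.378). Base mean per kb of span fell weakly with span over the same entries (rho -0.149), so long genes tended to rank lower on that scale. These are descriptions across genes, which are not independent replicates and share their libraries. Among 236 pairs of entries of 1 gene in which the shorter lay within the longer, exon length was alike (ratio 0.8 to 1.25) and the span ratio was at least 1.5, the longer entry had the higher base mean by over 1.1 times in 192 (81.4%). Pairs whose shorter entry had a base mean under 10 were left out. In those pairs the median span ratio was 1.95, the median exon length ratio 1.04 and the median base mean ratio 1.38. Such pairs of the heparan sulfate genes differed among themselves. *Ndst3* had 25.3 counts over 93.3 kb and 51.6 counts over 165 kb, a base mean ratio of 2.04 at a span ratio of 1.76 and an exon length ratio of 1.24. *Col18a1* had a base mean ratio of 1.13 at a span ratio of 1.88, nearer to its exon length ratio of 1.06. The span was kept as the length on which the heparan sulfate genes were compared, with exon length beside it.

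The other genes of the pathway numbered 52, of which 49 had an entry (*B3galt6*, *Sdc2* and *Gpc6* were not matched). Of these 49, 33 were above the median base mean and 29 above the median per kb of span. Their median percentile per kb of span was 54.1, against 67.6 for the 10 genes described.

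Beside the heparanases, the roles with the smallest share of genes above the median per kb of span were the 3-O-sulfotransferases (1 of 7) and the 6-O-sulfotransferases (*Hs6st1*, 1 of 3). For the 6-O-sulfotransferases this held per kb of span only. By base mean and per kb of exon 3 of 3 were above the median. The 3-O-sulfotransferases add the rarest sulfate group, which makes binding sites for antithrombin and other proteins. Of 7, *Hs3st3b1* alone was above the median per kb of span, at 17.7, and the lowest was *Hs3st2* at 0.121. By base mean *Hs3st3b1* (647 counts) and *Hs3st4* (730 counts) were above the median. *Hs3st4* spans 416 kb, and per kb of span it was at 1.76.

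Among the genes of the linkage tetrasaccharide, 4 of 6 measured were above the median per kb of span, from *Xylt2* at 83.2 down to *Xylt1* at 4.11, both of which encode xylosyltransferases that begin the chain on serine. Of 9 genes that supply sulfate and sugar donors, 6 were above it, with *Slc35b2*, a Golgi transporter of the sulfate donor PAPS, highest at 151 and *Papss2*, a PAPS synthase, lowest at 0.679. The other PAPS synthase gene, *Papss1*, was at 9.23. Per kb of exon 8 of the 9 donor genes were above the median, and *Slc35b2* (241) was below *Papss1* (274). Of 8 genes of lysosomal breakdown, 6 were above the median per kb of span, and the lowest was *Arsg*, which encodes a sulfatase, at 2.52. Per kb of span both heparanases lay below every one of these 8 genes. Per kb of exon 4 of the 8 were above the median, and *Hpse2* (214) was above 5 of them, among these *Ids* (119) and *Arsg* (76.8).

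Of 11 core protein genes measured, 9 were above the median per kb of span. On that scale *Sdc4*, a syndecan, was highest at 292, followed by *Agrn* (agrin) at 280 and *Hspg2* (perlecan) at 203, all above each of the 10 enzymes. Per kb of exon *Ext1* (1870) was above *Hspg2* (1455) and *Agrn* (1287), and *Sdc4* (2248) was below the highest core protein gene (3433). *Hspg2* had a base mean of 20629 counts, more than *Ext1*. The lowest was the glypican gene *Gpc5* at 0.365 per kb of span, with a span of 1432 kb and a base mean of 523 counts. Like *Hpse2*, *Gpc5* and *Hs3st4* lay above the median by base mean and per kb of exon and below it per kb of span. Other pathway genes did so too, among them *Hs6st2*, *Hs6st3*, *Xylt1* and *Papss1*.

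**Figure D3:**
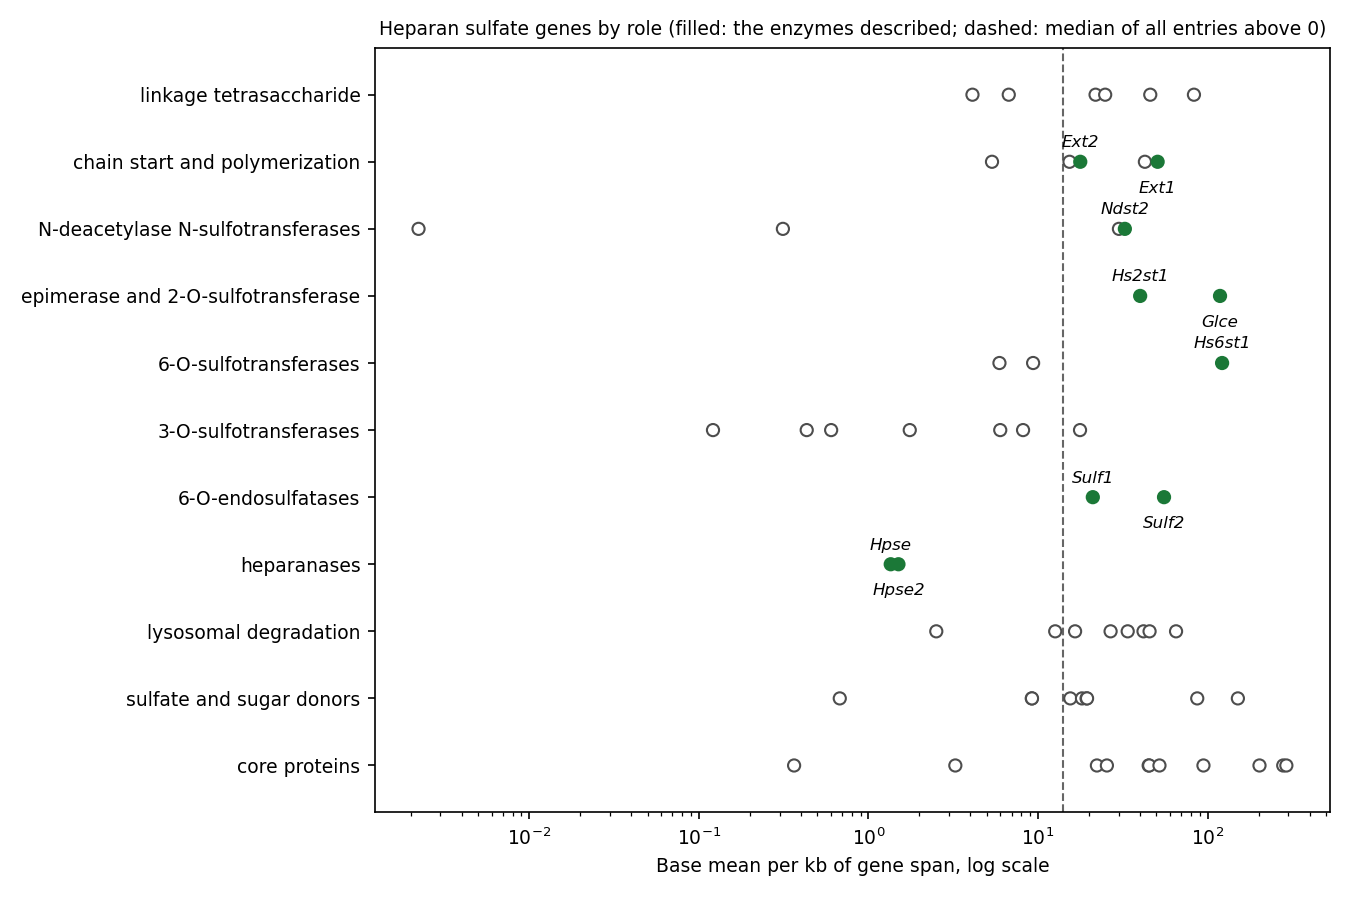
Base mean per kb of gene span (log axis) for each heparan sulfate gene with an entry, 1 row per role, with the 10 genes described filled and named and the dashed line at the median of all entries above 0 (14.0). Both heparanases lie at 1.36 and 1.51, to the left of all 8 other named genes.

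Across the 13986 genes with both a promoter window and a level, the count of CG dinucleotides in the window and the level per kb of span had a Spearman's rho of 0.480, a description across genes that share libraries and base composition. Where a gene had several windows, the first listed was taken here, which may not belong to the entry measured. For the genes described, the window nearest the start of the entry was taken instead. The median level was 1.19 per kb for 4868 genes with 0 to 8 CG dinucleotides, 26.7 for 4648 genes with 9 to 18 and 34 for 4470 genes with 19 to 56. *Hpse* (16 CG, 1.36 per kb) and *Hpse2* (9 CG, 1.51 per kb) fell in the middle group by CG count with levels far under its median. *Hpse2* had the lowest CG count of that group, and its level was above the median of the group with 0 to 8. Per kb of exon *Hpse2* was at percentile 60.4 of all entries, and the CG groups were not compared on that scale. In the middle group *Ext2* (12 CG, 17.8 per kb) was also below the group median, and *Ndst2* (15 CG, 32.6 per kb) was above it. *Hs2st1*, *Sulf2*, *Glce* and *Hs6st1*, all with at least 21 CG dinucleotides, lay above the median of the high group, although *Glce* did so only over its matched transcript and was at 24.2 over the RefSeq gene span.

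**Figure D4:**
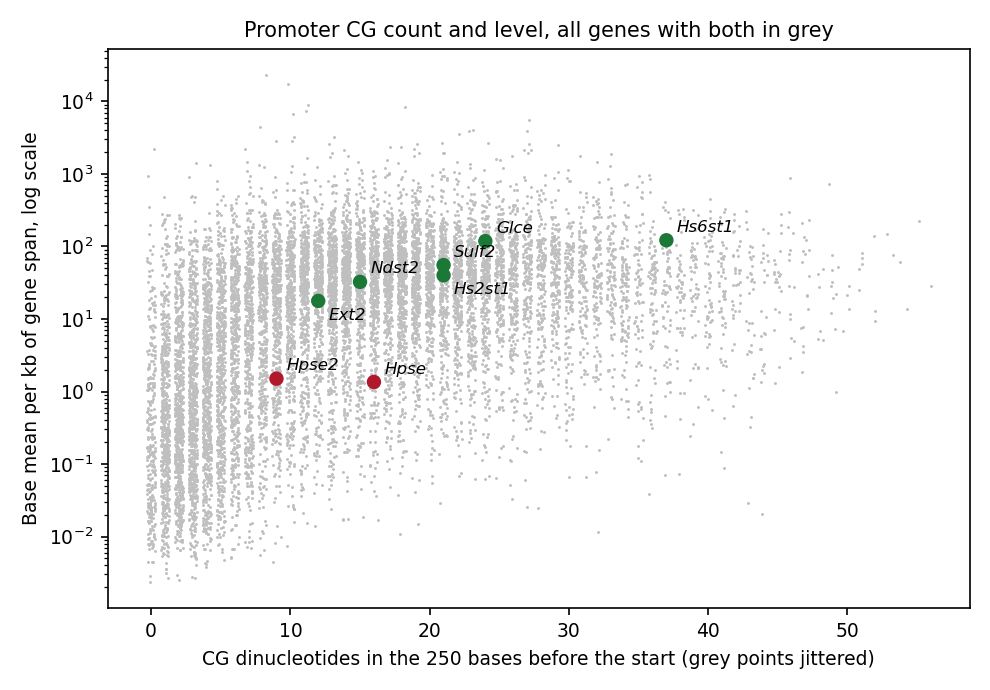
CG dinucleotides in the 250 bases before the annotated start against base mean per kb of gene span (log axis), for 13986 genes (grey, shifted sideways at random to separate equal counts) and the 8 genes with a window (green, with the heparanases in red). *Hpse* at 16 and *Hpse2* at 9 CG dinucleotides lie below the other 6 genes in level.

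The libraries and the cell type bear on all these values. The library size factors read from the steps between low base means ran from 0.664 to 1.48, a 2.23-fold range, and could not be assigned to UNT or OHT libraries. All 9 embryonic stem cell markers with an entry, among them *Pou5f1*, *Nanog* and *Sox2*, were above the median on each scale, between percentiles 80.1 and 99.7 per kb of span. Per kb of span, 0 of 6 primitive endoderm, 1 of 6 trophoblast, 2 of 8 fibroblast or feeder and 3 of 5 neural markers were above the median. Per kb of exon the counts were 0 of 6, 1 of 6, 0 of 8 and 1 of 5, and by base mean 0 of 6, 1 of 6, 1 of 8 and 1 of 5. The part of other cells in the levels was not tested. In bulk RNA, fewer cells with a transcript and less transcript per cell cannot be told apart. *Yaf2*, deleted in both groups, had a base mean of 3.24 counts, and *Rybp*, deleted only with OHT, had 13983 counts over UNT and OHT together.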

How the data were processed

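Nuclear RNA was sequenced from 3 UNT and 3 OHT libraries. The authors removed rRNA reads with Bowtie2 and aligned the rest to mm10 with STAR and then Bowtie2. Read counts over a filtered RefSeq gene set were made with their own script. The deposited base mean is a signal: the mean over 6 libraries of counts that the authors normalized for library size with DESeq2. Their other columns (log2 fold change, its standard error, test statistic, p-values and a threshold flag) hold the authors' comparison and were not used. The count test planned for values per library was not run, since no column holds them, and no unused column belongs to a single sample.

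Symbols came from RefSeq (GRCm38.p6) and GENCODE vM21 (mm10), which gave 20560 of 20633 entries a symbol. Of all entries, 20261 had a matched transcript, whose span and exon length were used (the longest span where several matched), and 1435 entries at 0 were left out of medians and percentiles. All 817 values above 0 and under 0.6 were whole multiples of 1 library's step within 2e-06, or sums of such steps, which gave the size factors. Python 3.11.15, numpy 2.4.6, pandas 2.3.3, scipy 1.17.1 and matplotlib 3.10.9 were used. The finding of the steps and the percentiles were tested on simulated data, in which counts were drawn singly and not as 2 per read pair. The counting intervals and the other computations were not tested in this way.

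The genes and lists were chosen with earlier results of these data known. Named are all 10 genes, up to 4 genes per role with the highest and lowest per kb of span first, *Rybp* and *Yaf2*, except 1 gene that falls under this rule and is not reported here. The matched transcript as the span, the gene pairs compared, the limits for nested entries, the promoters printed and other genes named were chosen after values were seen.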

Additional observations from a re-analysis of the deposited data

How the results depend on the processing

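No paired analysis was possible because the values used are means over all libraries and carry no replicate number. Leaving out a replicate was not possible for the same reason, and the planned test of OHT against UNT was not run. Of the 10 genes, 9 were above the median base mean, and 8 were when entries under a base mean of 10 were left out. Per kb of gene span 8 were above the median, and 6 under that filter. Of the 49 other pathway genes, 33 were above the median base mean, 26 under that filter and 37 with entries at 0 included, and 29 were above the median per kb of span, 20 under that filter and 32 per kb of exon. Other choices (the sum or the lowest of a gene's entries and, added after the data were seen, the RefSeq gene span and 1 entry per gene) moved these counts by at most 1. The percentiles of single genes moved more. Per kb, over all these choices, *Hpse2* ranged from percentile 11 to 60.4, *Ext2* from 43.4 to 85.9, *Sulf1* from 47.2 to 82.2, *Ndst2* from 45.9 to 67.6 and *Glce* from 61.7 to 89.7, so that all but *Glce* crossed the median. A level for 1 library, a spread between libraries and the counted part of each gene are outside what the base mean shows.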
